A study of Macaca mulatta with 30 samples.

Results

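The genes described here are chemokines and chemokine receptors, with CCR7 at their centre, in the fetal lung and hippocampus of rhesus macaques after antenatal betamethasone. They were chosen by symbol as a list of 9 genes: the ligands CCL19, CCL21, CXCL12, CCL2, CXCL8 and CXCL10 and the receptors CCR7, CXCR4 and CCR2. Of these, 6 had a row in each count table, among 30246 lung and 32386 hippocampus gene identifiers. All 6 passed the filter on low counts in lung, and 3 did in hippocampus. CCL21, CXCL8 and CCR2 were not analysed here. The list was drawn up with results of these libraries known, among them low CCR7 in lung 4 h after the clinical drug and low CXCL12 6 h after Beta-Ac. The members' values in the early lung groups (4 h and 6 h) are therefore given as a description. Which of them passed the call thresholds is stated as part of that description, with no p-value, and is no evidence about the list.

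Pregnant animals received an intramuscular injection of saline (control), of the clinical drug (Celestone, which combines betamethasone phosphate with betamethasone acetate) at 0.25 mg/kg, or of betamethasone acetate alone (Beta-Ac) at 0.125 mg/kg. Lung was taken in 5 groups of 3 wild type fetuses: saline, clinical drug 4 h or 5 days before delivery, and Beta-Ac 6 h or 5 days before delivery. Hippocampus was taken in 3 groups of 5 fetuses, at 5 days. The lung labels give gestational day 124 to 130 and the hippocampus labels 130 to 136, also for the 9 animals that gave both tissues, so the labels conflict and do not show an age difference between the tissues. The hippocampus groups follow the library names, because the treatment and dose fields of those libraries name the other drug. The lung labels of all 6 treated animals sequenced in both tissues give the drug of the library name. If the fields were right instead, the results of both drugs in hippocampus would change places. The 30 libraries came from 21 animals.

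Chemokines are small secreted proteins that attract leukocytes along a gradient and act on G protein-coupled receptors. CCR7 with its ligands CCL19 and CCL21 guides naive T cells and mature dendritic cells to lymphoid tissue. CXCL12, made by stromal and endothelial cells, acts on CXCR4 and holds blood progenitors and lymphocytes in tissue. It also guides migrating neurons in the developing brain. CCL2, acting on CCR2, draws monocytes, CXCL8 draws neutrophils, and CXCL10 is an interferon-induced ligand for T cells. Glucocorticoids are known to repress many inflammatory chemokine genes.

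Reads counted on genes numbered 14073002 to 45033799 per lung library and 18280762 to 29301058 per hippocampus library. Levels are read counts scaled to a common library total (CPM), normalised within a tissue, so they compare libraries of a tissue and not genes. Fold changes are on the log2 scale. SFTPC, the surfactant protein of alveolar type II cells, stood at 2708 to 9645 CPM in lung and at no more than 0.428 CPM in hippocampus. SNAP25, a synaptic protein, stood at 639.7 to 1324 CPM in hippocampus and at 1.38 to 4.35 CPM in lung. In hippocampus, saline replicate 5 stood apart. Its summed level of the choroid plexus genes CLIC6 and FOLR1 was 746.3 CPM, against 3.67 CPM at most in the other 14 libraries. Hippocampus results that rest on this library are given with and without it.

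Lung CCR7 (ENSMMUG00000002102) was low in a single group. It stood at 6.66, 7.05 and 4.37 CPM in saline and at 1.18, 0.523 and 1.57 CPM 4 h after the clinical drug. In the Beta-Ac 6 h libraries it stood at 3.44, 9.20 and 5.11 CPM. All 3 clinical drug 4 h libraries lay below each of the other 12 lung libraries, whereas Beta-Ac 6 h overlapped saline on both sides. The clinical drug 5-day libraries held 6.5, 4.92 and 6.60 CPM and the Beta-Ac 5-day libraries 6.64, 7.83 and 5.53 CPM, again across the saline values. Group means ran in the order 1.09 ± 0.53 (clinical drug 4 h), 5.92 ± 2.96 (Beta-Ac 6 h), 6.01 ± 0.94 (clinical drug 5 days), 6.03 ± 1.45 (saline) and 6.67 ± 1.15 CPM (Beta-Ac 5 days; SD, n = 3 each). The last 4 of these did not differ beyond their spread. Against saline, the log2 fold change was -2.43 (SE 0.40) for the clinical drug at 4 h and -0.02 (SE 0.36) for Beta-Ac at 6 h. The 3 clinical drug 4 h animals and 2 of the saline animals, at 6.66 and 7.05 CPM, carry animal numbers of the same series, and the other saline animal does not. What the series stands for is not given in the sources used here, and all Beta-Ac 6 h animals belong to later ones. Between the drugs at the early times, series, formulation, dose and hour therefore cannot be told apart. The clinical drug 4 h and 5-day animals share no series either, so series and time cannot be told apart between them.

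**Figure D1:**
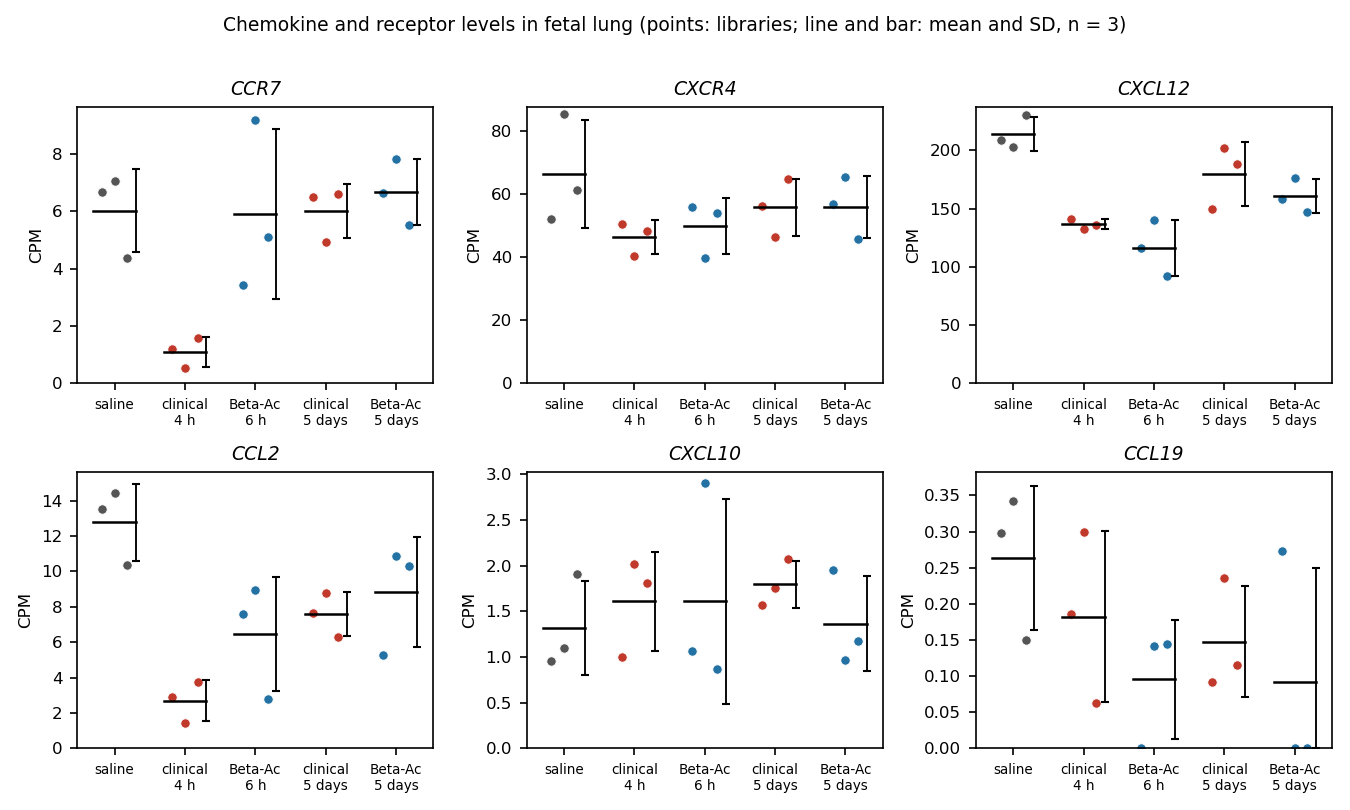
Levels of the 6 members with a row in fetal lung, in CPM, by group. Points are libraries, horizontal lines are means and bars are 1 SD (n = 3, cut at 0), with saline in grey, the clinical drug in red and Beta-Ac in blue. CCR7 in the clinical drug 4 h libraries lies between 0.523 and 1.57 CPM, below all other libraries, and CXCL12 is highest in saline, at 203.0 to 230.1 CPM.

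CCL19, a ligand of CCR7, was barely measured. It had 0 to 8 reads in each lung library, and group means ran from 0.0912 CPM (Beta-Ac 5 days) to 0.263 CPM (saline), with overlap between saline and every group but Beta-Ac 6 h. In saline its values were 0.297, 0.342 and 0.151 CPM, and in Beta-Ac 6 h 0, 0.142 and 0.145 CPM. At these counts a difference was not detectable.

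CXCL12 (ENSMMUG00000012181) was lower than saline in both early groups. Its values were 209.1, 203.0 and 230.1 CPM in saline. They were 141.2, 132.4 and 136.1 CPM 4 h after the clinical drug and 116.0, 140.6 and 92.2 CPM 6 h after Beta-Ac. No early library reached the lowest saline library, and both early groups overlapped each other. The log2 fold change against saline was -0.65 (SE 0.14) for the clinical drug and -0.88 (SE 0.14) for Beta-Ac. By 5 days the means were 180.0 ± 27.4 CPM (clinical drug) and 160.7 ± 14.9 CPM (Beta-Ac), between the early groups and the saline mean of 214.1 ± 14.2 CPM (SD, n = 3).

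CXCR4 (ENSMMUG00000011918), the receptor of CXCL12, ran in the same order of saline against early groups but with more overlap. Saline held 52.2, 85.2 and 61.4 CPM, the clinical drug 4 h group 50.6, 40.2 and 48.3 CPM, and Beta-Ac 6 h 55.9, 39.7 and 53.9 CPM. The clinical drug 4 h libraries all lay below saline, narrowly at the nearest pair (50.6 and 52.2 CPM), and Beta-Ac 6 h overlapped saline. The log2 fold changes were -0.51 (SE 0.20) and -0.41 (SE 0.20). Means at 5 days were 55.8 ± 9.2 CPM (clinical drug) and 56.0 ± 9.9 CPM (Beta-Ac), against 66.3 ± 17.1 CPM in saline.

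CCL2 (ENSMMUG00000000288), the monocyte attractant, was lowest 4 h after the clinical drug. Saline libraries held 13.5, 14.5 and 10.3 CPM and the clinical drug 4 h libraries 2.92, 1.42 and 3.76 CPM. Beta-Ac 6 h lay between, at 7.59, 8.95 and 2.80 CPM, with its lowest library inside the range of the clinical drug. Both early groups lay wholly below saline. Of all tested genes, 10.2% did so for the clinical drug at 4 h and 7.3% for Beta-Ac at 6 h. The same shares stand beside the separations from saline given above for CCR7, CCL19, CXCL12 and CXCR4. The log2 fold change was -2.22 (SE 0.42) for the clinical drug and -0.98 (SE 0.40) for Beta-Ac. At 5 days the means were 7.57 ± 1.24 CPM (clinical drug) and 8.83 ± 3.09 CPM (Beta-Ac), against 12.8 ± 2.15 CPM in saline.

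CXCL10, the interferon-induced ligand, showed no order among groups. Its means ran from 1.32 ± 0.52 CPM in saline to 1.80 ± 0.26 CPM in the clinical drug 5-day group, and the ranges of all 5 groups overlapped. The highest library, at 2.90 CPM, was in Beta-Ac 6 h, as was the lowest, at 0.868 CPM. Its log2 fold change against saline was 0.25 (SE 0.48) for the clinical drug at 4 h and 0.30 (SE 0.48) for Beta-Ac at 6 h.

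Calls required a change of 1.5-fold or more in edgeR, with p below 0.05 and the adjusted p below 0.1. Against saline at 4 h after the clinical drug, 3 of 6 members were called, all lower (CCR7, CCL2 and CXCL12), where 7.4% of the 17644 tested genes were called. The members' median log2 fold change was -0.58, against 0.02 over all genes. At 6 h after Beta-Ac, 1 of 6 members (CXCL12, lower) was called, where 0.442% of all genes were. The median was -0.65 there, against 0.02 over all genes. When both early groups were set against each other (clinical drug 4 h over Beta-Ac 6 h), 2 members were called, CCR7 at -2.42 (SE 0.40) and CCL2 at -1.24 (SE 0.42), where 6.74% of genes were. The clinical drug at 4 h against its own 5-day group gave the same 2 members, CCR7 at -2.43 and CCL2 at -1.47, where 10.4% of genes were called. Beta-Ac at 6 h against 5 days gave none of 6, where 0.261% of genes were, with CXCL12 at -0.47 (SE 0.14). These 5 comparisons share groups with each other, and nothing about the list is read from their counts, because the list was chosen with them known. CXCL12 for Beta-Ac at 6 h no longer met the thresholds without saline replicate 1 or Beta-Ac replicate 3. CCL2 between the drugs no longer met them without clinical drug replicate 2 or Beta-Ac replicate 1 or 2.

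**Figure D2:**
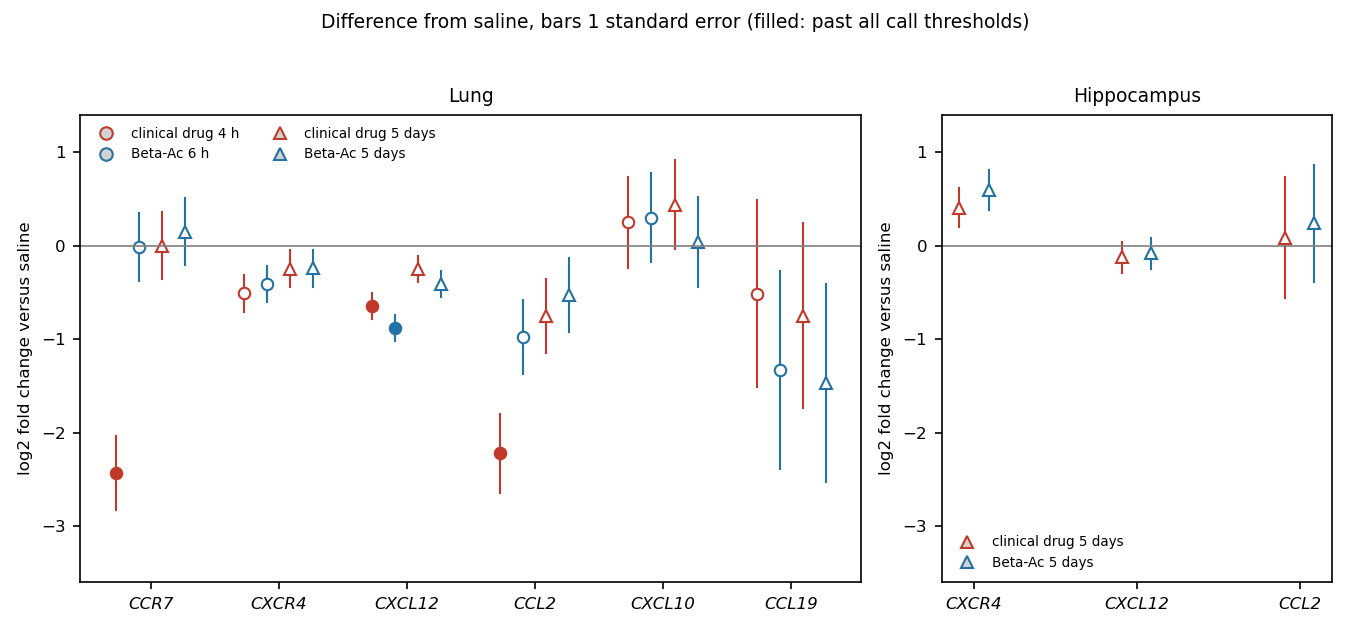
Log2 fold change of each tested member against saline in lung (left) and hippocampus (right), with bars of 1 standard error. Filled symbols met all call thresholds, which for the early lung groups is a description and no test. CCR7 and CCL2 at 4 h after the clinical drug lie at -2.43 and -2.22, and all 5-day symbols are open.

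Whether the members still differed at 5 days, when both drugs were sampled at the same time but at different doses, was tested with edgeR. For the clinical drug, 0 of 6 members were called against saline, where 0.0% of all genes were. No gene reached the adjusted p threshold there (smallest 0.195, edgeR), so the count says nothing about the members in particular. For Beta-Ac, 0 of 6 members were called, where 0.00567% of all genes were, a single gene. The paper, with the same thresholds in edgeR, reports differentially expressed lung genes for both drugs at 5 days. At an unadjusted p under 0.05 no member passed for the clinical drug and CXCL12 alone passed for Beta-Ac. DESeq2 also called 0 members in each.

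Among the 5-day values, CCR7 had a log2 fold change of -0.003 for the clinical drug, with a 95% interval from -0.77 to 0.77 (edgeR adjusted p = 0.944). For Beta-Ac it was 0.15, from -0.62 to 0.92 (adjusted p = 0.924). The 4 h value of the clinical drug, -2.43 (SE 0.40), lies outside these intervals. It was known when the list was drawn up and rests on the same saline libraries, so this is a description and no test.

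At 5 days CXCL12 was the only member with all libraries below saline for both drugs. All 6 treated libraries, between 147.3 and 202.2 CPM, lay below the lowest saline library at 203.0 CPM. The log2 fold change was -0.25 (95% interval -0.55 to 0.05, adjusted p = 0.931) for the clinical drug. It was -0.41 (95% interval -0.72 to -0.11, adjusted p = 0.676) for Beta-Ac, so neither passed the test over all genes.

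All 3 clinical drug 5-day libraries of CCL2 lay below saline, as for 6.0% of all tested genes, whereas Beta-Ac overlapped it. CCL2 was at -0.75 (95% interval -1.6 to 0.1, adjusted p = 0.931) for the clinical drug and -0.53 (95% interval -1.37 to 0.31, adjusted p = 0.814) for Beta-Ac. CXCR4 was at -0.25 and -0.24, with adjusted p = 0.931 and 0.826. Between the drugs at 5 days, 0 of 6 members were called, where 0.0% of genes were. All 6 members had an adjusted p of 0.999 in that comparison. The 95% interval of the difference, clinical drug minus Beta-Ac, ran from -0.91 to 0.61 for CCR7, from -0.14 to 0.47 for CXCL12 and from -1.06 to 0.62 for CCL2.

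Among the genes whose lung levels most resembled CCR7 were TRAF3IP3, CD3E, TBC1D10C and ACAP1, with Pearson's r of 0.967, 0.962, 0.959 and 0.958 across the 15 lung libraries. They were among the leading 5 of 11213 genes compared on log2 CPM. CD3E is a chain of the T cell receptor complex. Across the 12 libraries without the clinical drug 4 h group, r was 0.804 for CD3E, 0.796 for TBC1D10C, 0.762 for ACAP1 and 0.690 for TRAF3IP3. Across the 9 saline and 5-day libraries alone it was 0.885, 0.657, 0.850 and 0.28 for the same genes in that order, so the likeness of TRAF3IP3 rests largely on the early libraries. The points share the library, its depth and its cell content.

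CD3E stood at 6.48, 7.53 and 3.46 CPM in saline and at 1.18, 0.523 and 2.38 CPM 4 h after the clinical drug. All 3 libraries lay below saline, and the log2 fold change was -2.09 (SE 0.48), given without a test because the gene was picked for its likeness to CCR7 in these libraries. In Beta-Ac 6 h it stood at 2.99, 6.72 and 6.90 CPM, across the saline range, and its log2 fold change was -0.07 (SE 0.45).

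**Figure D3:**
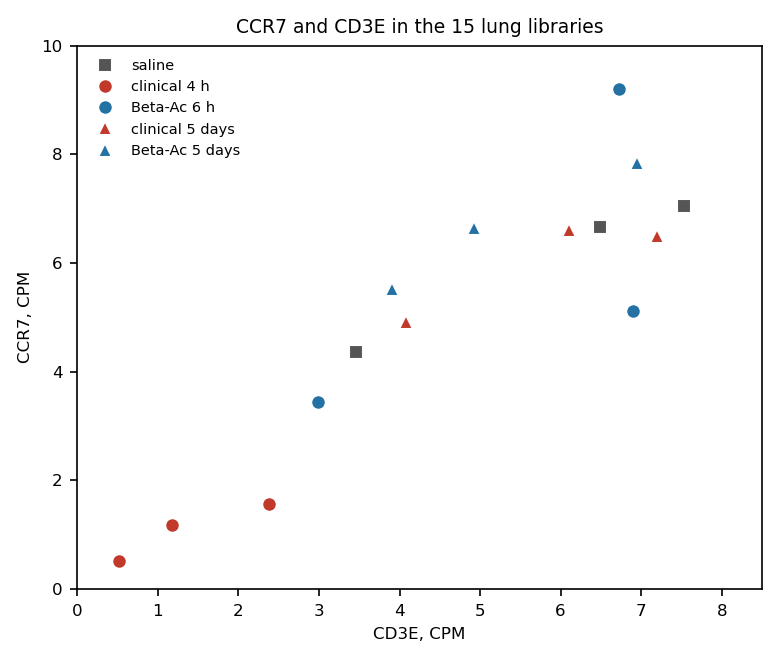
CCR7 against CD3E, both in CPM, in the 15 lung libraries. Circles are the early groups, triangles the 5-day groups and squares saline, with the clinical drug in red and Beta-Ac in blue. The 3 clinical drug 4 h libraries sit at the lower left, with CD3E at 0.523 to 2.38 CPM and CCR7 at 0.523 to 1.57 CPM.

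Of a list of 13 T cell markers, 10 were tested in lung. At 4 h after the clinical drug, where 7.4% of all genes were called, 4 of them fell (CD3E, CD5 and TCF7 among them), 1 rose and 9 of 10 had a negative log2 fold change, with a median of -0.91 against 0.02 over all genes. The gene that rose was IL7R, the interleukin-7 receptor, at a mean of 98.7 CPM against 45.5 CPM in saline. At 6 h after Beta-Ac 0 of 10 were called and the median was -0.12. The summed level of the T cell markers at 4 h after the clinical drug was 125.7 CPM in the lowest library and 210.2 CPM in the middle one, on both sides of saline, at 158.5 to 188.0 CPM. Without IL7R the sums were 79.3 to 108.1 CPM and 106.9 to 142.2 CPM, and 103.6 to 130.5 CPM for Beta-Ac at 6 h. No T cell marker with a row was at 0 in all lung libraries. The calls of CD5 and IL7R were lost without any 1 of 5 libraries and that of TCF7 without any 1 of 4, with adjusted p up to 0.253, 0.165 and 0.170. Summed B cell markers were 0.897 to 3.13 CPM at 4 h after the clinical drug and 3.56 to 5.53 CPM in saline. Summed dendritic cell markers went the other way, at 132.8 to 201.6 CPM and 71.6 to 115.5 CPM. Of 6 dendritic cell markers, IRF8, LAMP3, CD1C and FLT3 had an unadjusted p under 0.05 in edgeR at 4 h after the clinical drug. Among them IRF8 fell, with log2 fold changes of -1.50 to -1.22 over the recounts, although the sum rose. The dendritic cell sum was not repeated without LAMP3 or any other gene. No change in dendritic cells is read from it. The part of T cells, B cells or dendritic cells in the CCR7 result was not tested. In bulk tissue, fewer cells of a type and less RNA per cell cannot be told apart.

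Marker lists of the cell types that make CXCL12 and CCL2 were read in the same libraries. Of 4 tested fibroblast markers, 0 were called at 4 h or 6 h, and their summed level was 5298 to 6452 CPM for the clinical drug at 4 h and 4605 to 7216 CPM in saline. Of 4 blood endothelial markers, KDR fell 4 h after the clinical drug (-1.16, SE 0.14, adjusted p = 0.000132), where 7.4% of all genes were called. TEK and CDH5 also had an unadjusted p under 0.05 there in edgeR, as KDR had for Beta-Ac at 6 h. Their sum was 1721 to 2392 CPM in that group, 2256 to 2327 CPM in Beta-Ac 6 h and 2426 to 2599 CPM in saline. Of 10 listed monocyte and macrophage markers, 6 had a row in lung, and none of these was called lower at 4 h after the clinical drug. CD163, a haemoglobin scavenger receptor, rose there by 1.81 (SE 0.46, adjusted p = 0.0232). The sum of the 6 markers, CD163 included, was 85.5 to 182.5 CPM there and 106.2 to 147.8 CPM in saline. The part of these cells in the CXCL12 and CCL2 values was not tested.

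The lung genes most like CXCL12 were LRRTM4 (r = 0.882), RDX (0.857), SLITRK5 (0.849), OSTF1 (0.841) and MED21 (0.835). Their r over the 12 libraries without the clinical drug 4 h group was 0.848 to 0.928. Over the 9 saline and 5-day libraries, without both early groups, it was 0.414 (MED21) to 0.839 (SLITRK5). SLITRK5, a neuronal transmembrane protein, had log2 fold changes of -0.93 (SE 0.19) for the clinical drug at 4 h and -0.84 (SE 0.19) for Beta-Ac at 6 h, given without a test because likeness to CXCL12 chose it.

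Other chemokine genes were taken from a list of 36 ligands and 20 receptors, of which 10 ligands and 12 receptors were tested in lung. At 4 h after the clinical drug, 1 of 10 ligands fell (CCL8) and 1 of 12 receptors rose (CCRL2), shares close to the 7.4% of all genes called there, with median log2 fold changes of 0.23 for ligands and -0.08 for receptors. At 6 h after Beta-Ac, 0 of 10 and 0 of 12 were called by edgeR and by DESeq2, and 2 receptors (ACKR1 and CCRL2) had an unadjusted p under 0.05. At 5 days 0 were called by either tool in either drug, and none had an unadjusted p under 0.05.

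CCRL2, an atypical receptor that binds the attractant chemerin without signalling, was higher in both early groups. Saline libraries held 13.98, 10.8 and 11.2 CPM and the clinical drug 4 h libraries 21.8, 23.7 and 25.5 CPM. Beta-Ac 6 h lay between, at 16.9, 14.2 and 20.5 CPM, with every library above saline. Of all tested genes, 11.1% lay wholly above saline for the clinical drug at 4 h and 9.0% for Beta-Ac at 6 h. CCRL2 rose by 0.98 (SE 0.23, adjusted p = 0.0137) 4 h after the clinical drug. For Beta-Ac at 6 h it was at 0.52 (SE 0.23, adjusted p = 0.313). At 5 days the means were 9.47 ± 1.04 CPM (clinical drug) and 9.98 ± 3.54 CPM (Beta-Ac), below the saline mean of 11.97 ± 1.75 CPM. The clinical drug at 4 h exceeded its 5-day group by 1.32 (SE 0.23, adjusted p = 0.00170).

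CCL8, a monocyte attractant and close paralog of CCL2 and CCL13, was measured with 0 to 155 reads in a library. It stood at 2.74, 0.342 and 2.11 CPM in saline and at 0.208, 0 and 0.313 CPM 4 h after the clinical drug, a log2 fold change of -3.19 (SE 1.11, adjusted p = 0.0811). The call was lost on leaving out 5 of the 6 libraries in turn, with adjusted p up to 0.209. In Beta-Ac 6 h a single library held 5.48 CPM and the others 0.557 and 0.241 CPM. The difference between the drugs at the early times was -3.48 (adjusted p = 0.0562) with that library and -1.08 (adjusted p = 0.322) without it, and the call was also lost without clinical drug replicate 2 (adjusted p = 0.143). CCL13 was lower at 4 h after the clinical drug than in Beta-Ac 6 h (-2.24, adjusted p = 0.0816) and than in the 5-day group (-2.23, adjusted p = 0.0637). CCL26, an eosinophil attractant with 1 to 17 reads per library in both groups compared, was higher at 4 h than at 5 days (2.33, adjusted p = 0.0788). These calls were not stable to leaving out 1 library. For CCL13 the adjusted p reached 0.173 (without clinical drug 4 h replicate 2) against Beta-Ac and 0.167 (without 5-day replicate 2) against 5 days, and its log2 fold change ran from -7.13 to -1.83 in each. For CCL26 it reached 0.221 (without 4 h replicate 2). Reads of such near copies as CCL8 and CCL13 may have been shared between them, so their values are uncertain.

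**Figure D4:**
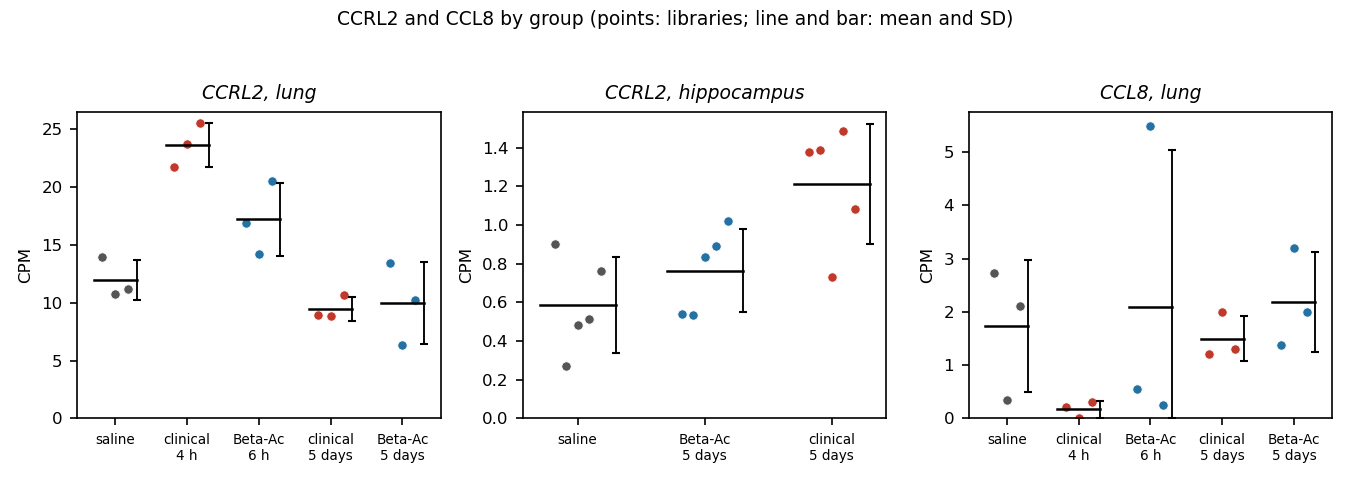
CCRL2 in lung (left) and hippocampus (middle) and CCL8 in lung (right), in CPM by group. Points are libraries, lines are means and bars are 1 SD (n = 3 in lung and 5 in hippocampus, cut at 0). CCRL2 in lung is highest 4 h after the clinical drug, at 21.8 to 25.5 CPM, and 1 Beta-Ac 6 h library holds CCL8 at 5.48 CPM.

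In hippocampus the CXCL12 and CXCR4 pair was measured well, and the CCR7 pair was not. CCR7 had 6, 14 and 8 reads over all 5 libraries of saline, Beta-Ac and the clinical drug. CCL19 had 25, 40 and 15 and CXCL10 had 2, 8 and 2. These 3 members were below the read minimum and were not tested. CXCL12 and CXCR4 were listed at means of 13.0 and 13.9 CPM in saline hippocampus and 214.1 and 66.3 CPM in saline lung. The tissues were normalised separately, so this is not a test of the tissues.

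CXCR4 was the member with the highest treated values against saline. Saline libraries ran from 9.36 CPM through a median of 14.03 CPM to 20.1 CPM, in replicate 5. Beta-Ac libraries held 18.2, 15.3, 17.4, 32.9 and 21.5 CPM and clinical drug libraries 20.3, 18.9, 16.9, 17.8 and 18.4 CPM. All 10 treated libraries lay above 4 of the 5 saline libraries, and both groups overlapped the saline library that carried choroid plexus genes. The log2 fold change was 0.60 (SE 0.21, 95% interval 0.15 to 1.05, adjusted p = 0.288, edgeR) for Beta-Ac and 0.41 (SE 0.21, 95% interval -0.04 to 0.85, adjusted p = 0.208) for the clinical drug. Neither was called. Without saline replicate 5 the values were 0.77 (adjusted p = 0.157) and 0.57 (adjusted p = 0.0737), the second below the fold change of 1.5. Without the Beta-Ac library at 32.9 CPM, the Beta-Ac value was 0.38 (adjusted p = 0.350).

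Sequencing run bears on these values, since 3 of the 5 saline libraries were on runs that held saline alone. They held 9.36, 15.0 and 11.2 CPM of CXCR4. In the run with 3 libraries of each drug, the saline library held 14.03 CPM, Beta-Ac 15.3 to 18.2 CPM and the clinical drug 16.9 to 20.3 CPM. In the other shared run, the saline library, replicate 5, held 20.1 CPM, Beta-Ac 21.5 and 32.9 CPM and the clinical drug 17.8 and 18.4 CPM. With run as a block, the log2 fold change was 0.33 (adjusted p = 0.566) for Beta-Ac and 0.18 (adjusted p = 0.658) for the clinical drug. Microglial markers, another source of CXCR4, were limited to P2RY12 and CSF1R. Their summed level was 46.2 to 112.4 CPM in saline, 67.1 to 95 CPM in Beta-Ac and 71.0 to 131.2 CPM in the clinical drug group, where P2RY12 rose by 0.85 (adjusted p = 0.0431). Their part in the CXCR4 values was not tested.

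CXCL12 did not separate the hippocampus groups. It ran from 10.7 to 16.6 CPM in saline, with a median of 13.1 CPM, from 9.59 to 16.3 CPM in Beta-Ac and from 9.60 to 13.7 CPM in the clinical drug group. The highest saline library was again replicate 5. Its log2 fold change was -0.09 (95% interval -0.44 to 0.27, adjusted p = 0.879) for Beta-Ac and -0.13 (95% interval -0.49 to 0.23, adjusted p = 0.643) for the clinical drug. Each interval includes the 5-day lung value of its own drug, -0.41 (Beta-Ac) and -0.25 (clinical drug). Neither reaches the early lung values, -0.88 (Beta-Ac, 6 h) and -0.65 (clinical drug, 4 h), which differ in time as well as tissue. No difference between the tissues is read from these values.

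CCL2 was near the limit of measurement, with 2 to 21 reads in each hippocampus library. Saline replicate 5 held 0.840 CPM and the other saline libraries 0.0778 to 0.281 CPM. The log2 fold change was 0.24 (SE 0.63, adjusted p = 0.908) for Beta-Ac and 0.09 (SE 0.65, adjusted p = 0.945) for the clinical drug. Without saline replicate 5 the values were 1.25 (adjusted p = 0.359) and 1.1 (adjusted p = 0.220), so that library set the size of the difference.

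Over the 3 tested members, 0 were called for the clinical drug against saline, where 7.86% of the 17390 tested genes were, for Beta-Ac against saline, where 0.0% were, and between the drugs, where 0.0% were. At an unadjusted p under 0.05, CXCR4 alone passed, for Beta-Ac, and DESeq2 called 0 members in each. Between the drugs the 95% interval of the difference, clinical drug minus Beta-Ac, ran from -0.64 to 0.26 for CXCR4 and from -0.40 to 0.32 for CXCL12.

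**Figure D5:**
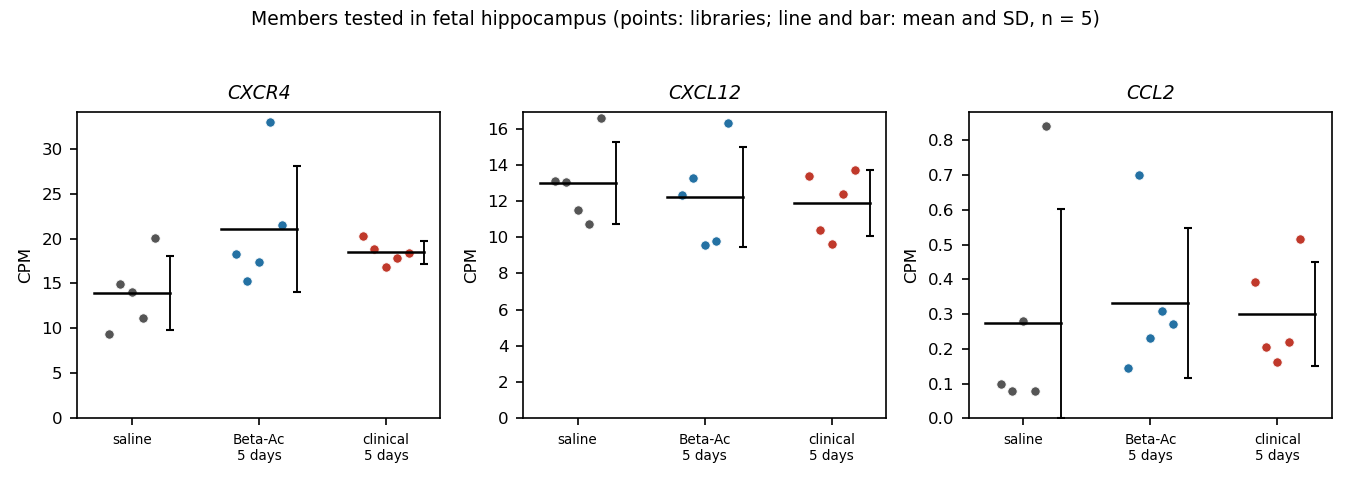
Levels of the 3 members tested in fetal hippocampus, in CPM by group. Points are libraries, lines are means and bars are 1 SD (n = 5, cut at 0). For CXCR4, 4 of 5 saline points lie at or below 15.0 CPM and every treated point lies above them, and for CCL2 the saline mean is set by 1 library at 0.840 CPM.

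Of the other chemokine genes, 4 ligands and 5 receptors were tested in hippocampus. For the clinical drug against saline, where 7.86% of the 17390 tested genes were called, 0 of 4 ligands and 1 of 5 receptors were. Nothing is read from counts this small. The receptor called was CCRL2. It had 7 to 34 reads per library and ran from 0.272 to 0.901 CPM in saline, with a median of 0.516 CPM, and from 0.729 to 1.49 CPM, with a median of 1.38 CPM, in the clinical drug group, so the groups overlapped. CCRL2 rose by 1.05 (SE 0.33, adjusted p = 0.0466) after the clinical drug. For Beta-Ac, at 0.536 to 1.02 CPM, it was at 0.39 (SE 0.33, adjusted p = 0.663). With run as a block the clinical drug value was 1.03 (adjusted p = 0.179), and without saline replicate 5 it was 1.17 (adjusted p = 0.0433). No other chemokine gene tested in hippocampus was called against saline in either drug, and of these only CCL25 had an unadjusted p under 0.05, for Beta-Ac.

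The hippocampus genes most like CXCL12 were ICAM1 (r = 0.905), FBLN5 (0.876), IL1R1 (0.849), LUM (0.838) and PCOLCE (0.826) over 15 libraries, of 12041 genes compared. FBLN5, LUM and PCOLCE are genes of the extracellular matrix, and ICAM1 and IL1R1 are an adhesion molecule and a cytokine receptor of endothelium. Without saline replicate 5, in which the fibroblast markers summed to 1025 CPM against 298.7 to 649.7 CPM in the other 14, r was 0.773 to 0.876.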

How the data were processed

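RNA from lung and hippocampus was sequenced as 75 bp paired-end reads. For lung, the authors aligned reads to the rhesus build MMUL1.0 and counted them per Ensembl gene with featureCounts. The paper names Bowtie 2 for lung, whereas the submitters' processing notes name Bowtie 1.2.1.1 with featureCounts 1.5.1. For hippocampus the notes name Bowtie 2 and featureCounts. The paper's methods name the build once, in a section that describes lung RNA. The deposited values are raw counts, in 1 table per tissue. The tables share 20572 identifiers, so their annotations differ and each was tested alone. Symbols were matched to 52.1% of lung and 54.4% of hippocampus identifiers. No sequence or coordinates of the files' build were used here.

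A gene was tested if 3 lung or 5 hippocampus libraries reached 7 reads, with edgeR 4.0.16 in R 4.3.3 (TMM, quasi-likelihood F-test, 1 fit per tissue). P-values were adjusted over all tested genes, by Benjamini-Hochberg for hippocampus and after Storey for lung. The prior count was 0.125 for fold changes and 2 for the log2 CPM of correlations. DESeq2 1.42.0, other filters, adjustments and normalisation, run as a block and each library left out were alternatives. The procedure was tested on simulated data. Replicates are separate animals, and they differed by far more than counting error (chi-square per degree of freedom at least 13.9), so no counting intervals are given.

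Members, gene lists and tests were chosen with earlier results of these data known. Named genes were the members, other chemokine genes called (up to 4 per comparison), and the 5 genes with the highest Pearson's r, among genes at a mean of at least 1 CPM. CCL25, ACKR1, KDR, TEK, CDH5, IRF8, LAMP3, CD1C, FLT3, CD163, P2RY12 and the T cell genes other than CD3E were named after their values were seen. Some genes that these rules name are not reported here.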

Additional observations from a re-analysis of the deposited data

Results flagged for a closer look

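Samples far from the rest of their group were looked for by Dixon's test for 6 members in 3 hippocampus groups of 5 libraries (18 checks), and 6 were found, where chance gives about 1 in 20. CCL2 in saline replicate 5 was at 0.840 CPM, next to 0.281 CPM. The other 5 rest on 2 to 6 reads, and the rate of 1 in 20 does not hold for such counts. For CXCL10 in saline and in the clinical drug group, all other libraries held 0 reads, so any read would be flagged. CXCL10 was at 0.0800 CPM in saline replicate 5, at 0.204 CPM in Beta-Ac replicate 5 and at 0.0983 CPM in clinical drug replicate 1. CCR7 was at 0.0793 CPM in saline replicate 4 and at 0.246 CPM in clinical drug replicate 1.

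Differences between drugs or between times were found in lung for CCR7 and CCL2, whose values were known when the members were chosen. CCR7 differed by -2.42 between the early groups (clinical drug minus Beta-Ac) and by -2.43 between 4 h and 5 days of the clinical drug. CCL2 differed by -1.24 and -1.47 in the same comparisons. The hours and doses of the drugs differed, and in both comparisons the 2 groups share no series of animal numbers.

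For CXCR4 at 5 days, every treated lung library lay below the saline mean and every treated hippocampus library above it, for both drugs. The lung saline mean was raised by replicate 2, at 85.2 CPM. Without that library the lung log2 fold changes were -0.03 (clinical drug, -0.25 with it) and -0.02 (Beta-Ac, -0.24 with it). In hippocampus, run as a block gave 0.18 and 0.33. The log2 ratio of mean CPM, hippocampus minus lung, was 0.66 (clinical drug) and 0.84 (Beta-Ac). This difference was not tested, and neither tissue's own change was called.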

How the results depend on the processing

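Over the 11 comparisons, 169 recounts of called members were made, and 159 stayed within 1.5 times the reported count. Between the early groups of both drugs, the count went from 2 to 1 without the low-count filter, with Benjamini-Hochberg adjustment and with only the 2 groups fitted, and ran from 1 to 2 on leaving out single libraries, since the call of CCL2 was lost. For Beta-Ac at 6 h against saline it went from 1 to 0 with only the 2 groups fitted and ran from 0 to 1 on leaving out single libraries. For Beta-Ac at 6 h against 5 days it ran from 0 to 1, with CXCL12 called without 6 h replicate 2. CXCR4 at 4 h after the clinical drug was called only without saline replicate 1 (-0.67).

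No called member changed sign. Of uncalled values, CCR7 for the clinical drug at 5 days, reported at -0.003, was 0.002 with RLE normalisation and with DESeq2, 0.005 without the filter and 0.001 with only the 2 groups, and ran from -0.19 to 0.13 on leaving out libraries. For Beta-Ac at 5 days CCR7 ran from -0.04 to 0.28 and CXCL10 from -0.31 to 0.42. CXCR4 between the drugs at 5 days in lung ran from -0.14 to 0.12. In hippocampus with run as a block, CCL2 was -0.83 (clinical drug) and -0.65 (Beta-Ac). On leaving out libraries it ran from -0.19 to 1.1 and from -0.22 to 1.25, and between the drugs from -0.43 to 0.30. CXCL12 ran from -0.21 to 0.019 for Beta-Ac and from -0.12 to 0.081 between the drugs, and CXCR4 between the drugs from -0.29 to 0.028. The causes were not tested.

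Counts over all genes moved more. DESeq2 called 284 genes (edgeR 78) for Beta-Ac at 6 h and 196 (46) against its 5-day group. In the 5-day lung comparisons it called 16 (0) for the clinical drug, 8 (0) between the drugs and 40 (1) for Beta-Ac. In hippocampus it called 149 (0) for Beta-Ac and 186 (0) between the drugs, where run as a block gave 13. With only the 2 groups fitted, 19 genes were called for Beta-Ac at 6 h, 9 against its 5-day group, 7 for Beta-Ac at 5 days and 314 between the early groups, where 724 were called without the filter and 1189 in the reported fit. Without the fold-change threshold, calls went from 1306 to 2104 (clinical drug 4 h), from 1189 to 2389 (between the early groups), from 1833 to 3306 (clinical drug 4 h against 5 days) and from 1366 to 3816 (clinical drug, hippocampus). With Benjamini-Hochberg adjustment 29 and not 46 genes were called for Beta-Ac at 6 h against 5 days. On leaving out 1 library, counts ran from 9 to 211 for Beta-Ac at 6 h (lowest without saline replicate 1), from 667 to 1971 between the early groups, from 5 to 98 for Beta-Ac at 6 h against 5 days and from 0 to 184 for Beta-Ac in hippocampus (highest without Beta-Ac replicate 1).

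Groups of 3 leave wide intervals, and CCL19, CCL8, CCL13, CCL26 and hippocampus CCL2 rest on few reads. The correlations over 9, 12 or 14 libraries and the T cell sum without IL7R were chosen after seeing the data. No paired analysis was possible because the groups compared within a tissue share no animal. The tissues, whose tables were normalised separately, were not tested against each other.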
